A study of Homo sapiens with 13 samples.

Results

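The genes described here encode the interstitial matrix, the meshwork of collagens, elastic fibres, proteoglycans and adhesive glycoproteins that fills the space between cells and that fibroblasts typically make. They were the array rows whose platform annotation gave 1 of 47 listed symbols alone, with the brightest row taken where a gene had several. Of the 47 symbols, 46 had such a row, out of 18377 genes tested, and COL17A1 is not analysed here. RNA was measured in the human hepatoblastoma line HepG2 and in HepG2S1, which the labels give as a derivative of HepG2. That descent was not tested with these arrays. According to the labels, HepG2S1 was obtained by raising sorafenib in steps of 0.25 µM over several months and was then kept under the drug without a break. The labels do not say whether HepG2S1 is 1 clone. Sorafenib blocks several kinases, among them RAF and VEGF receptor kinases, and is given for hepatocellular carcinoma.

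RNA from flask cultures was hybridised to Affymetrix arrays, 1 per sample, and all cells were harvested after 72 h in a medium with 10% fetal calf serum, insulin and 50 nM dexamethasone. 3 samples were HepG2S1 with 6 µM sorafenib at 2% O2. 3 were HepG2S1 withdrawn from sorafenib at 20% O2. 4 were HepG2S1 with 6 µM sorafenib at 20% O2, and 3 were HepG2 without the drug at 20% O2. Values are on the log2 scale, so that a difference of 1 is a factor of 2. Array medians lay between 7.30 and 7.42, and the correlation over all rows was 0.995 to 0.998 between arrays of 1 group. HepG2S1 arrays correlated with HepG2 arrays at 0.913 to 0.923. The median lower quartile of the arrays was 5.76. Values below it are called near the floor here, since array values flatten there and the table has no detection calls. Because each probe set has its own response, levels were compared between samples and not between genes, except in the summed levels of marker lists. Those sums add linear values over genes, so bright probe sets weigh most in them.

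A collagen fibril network gives a tissue its tensile strength, and fibrillin microfibrils carry elastin and hold growth factors of the TGF-beta family in a latent form. Small leucine-rich proteoglycans coat the fibrils and regulate their thickness. Matricellular proteins such as thrombospondins and SPARC add little to structure and act on cell adhesion and growth factor signalling. In liver, stellate cells and fibroblasts make most of this matrix, while hepatocytes secrete plasma fibronectin.

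RefSeq promoter windows (GRCh38.p14) were matched to 31 of the 46 genes. The 250 bases before the first listed start were searched on both strands for ACGTG, the core of the element bound by hypoxia-inducible factors, for TGANTCA, the AP-1 site, and for TATAAA. The first motif was in 7 of the 31 windows (22.6%) and in 18.7% of 27305 windows over all genes. TGANTCA was in 4 (12.9%, against 6.60%) and TATAAA in 7 (22.6%, against 11.1%). The windows of 4 genes are shown because values below turn on them: FBN2 and COL12A1 differed strongly between the lines and both rose on withdrawal, COL5A1 was the collagen called at 2% O2, and THBS1 had the largest change on withdrawal. They lie at chr5:128538246-128538495 (FBN2, minus strand), chr6:75206054-75206303 (COL12A1, minus strand), chr9:134641553-134641802 (COL5A1, plus strand) and chr15:39580829-39581078 (THBS1, plus strand). Capitals mark ACGTG or its complement CACGT; in FBN2 the match was CACGTG, which reads the same on both strands. The THBS1 window held none of the 3 motifs, and the other 3 windows held neither TGANTCA nor TATAAA. A match is a description of the letters only.
FBN2: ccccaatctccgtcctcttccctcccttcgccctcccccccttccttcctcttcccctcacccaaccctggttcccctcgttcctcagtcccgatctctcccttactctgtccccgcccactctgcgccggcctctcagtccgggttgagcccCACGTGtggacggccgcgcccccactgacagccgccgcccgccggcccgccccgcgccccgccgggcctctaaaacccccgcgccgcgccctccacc
COL12A1: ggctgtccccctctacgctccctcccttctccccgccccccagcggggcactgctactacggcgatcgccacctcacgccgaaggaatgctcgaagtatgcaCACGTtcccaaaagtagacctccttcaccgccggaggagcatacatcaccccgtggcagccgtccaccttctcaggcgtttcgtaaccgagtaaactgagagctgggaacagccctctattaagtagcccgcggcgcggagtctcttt
COL5A1: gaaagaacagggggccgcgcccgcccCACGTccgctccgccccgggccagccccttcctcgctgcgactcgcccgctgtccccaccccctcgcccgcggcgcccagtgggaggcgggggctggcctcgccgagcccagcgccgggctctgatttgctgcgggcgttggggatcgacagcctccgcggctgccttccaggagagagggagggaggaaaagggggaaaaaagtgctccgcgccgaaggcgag
THBS1: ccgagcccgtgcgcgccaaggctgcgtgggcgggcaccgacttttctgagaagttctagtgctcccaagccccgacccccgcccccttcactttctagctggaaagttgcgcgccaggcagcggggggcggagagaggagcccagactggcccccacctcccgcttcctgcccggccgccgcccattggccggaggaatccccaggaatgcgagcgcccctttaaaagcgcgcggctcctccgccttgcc

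The first comparison set HepG2S1 with sorafenib at 20% O2 (n = 4) against untreated HepG2 (n = 3). It addresses how the matrix genes differ between the line labelled as drug-adapted and HepG2. The 2 lines differed in which matrix genes were high: DCN, LUM, MFAP5, FBN2, EFEMP1, EDIL3 and COL12A1 were 31.2-fold to 125-fold higher in HepG2S1, and VCAN, SPARC, FN1 and RELN were 14.5-fold to 54.3-fold lower. Collagens I and III, the main fibrillar collagens of fibroblasts, did not pass the test in either direction. Of the 46 genes 18 rose, 13 fell and 15 did not pass in limma at an adjusted p under 0.05, while 57.3% of all genes tested passed (30.1% higher, 27.2% lower). The share that passed was thus close to that of all genes. By 2-fold or more, 15 rose and 7 fell, 22 of 46, against 15.8% of all genes tested (8.45% higher, 7.31% lower). The 46 genes were chosen with earlier results of these data known, so the gap between these shares is not a test of the set. The median log2 fold change was 0.00 for the 46 genes and 0.01 for all genes. The effects of the line and of the drug cannot be told apart here, and in bulk RNA fewer cells of a kind and less RNA per cell cannot be told apart either.

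**Figure D1:**
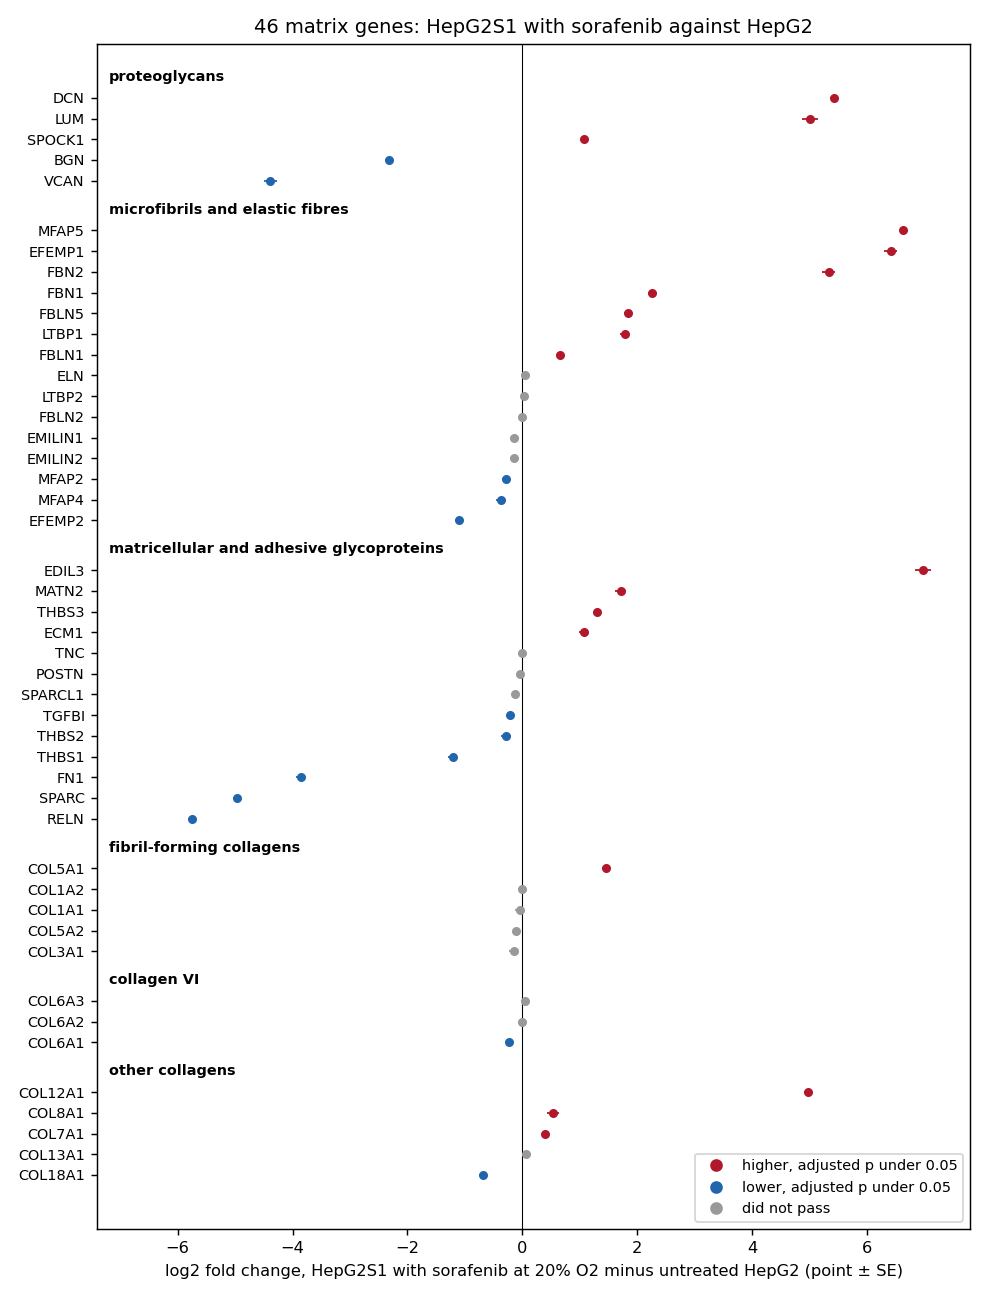
Log2 fold change of each of the 46 matrix genes, HepG2S1 with sorafenib at 20% O2 (n = 4) minus untreated HepG2 (n = 3), on the x axis, by role of the encoded protein; bars are the SE of the limma fit and colours give the call. Values run between -5.76 (RELN) and 6.97 (EDIL3), with the type I, III and VI collagens near 0.

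All 5 proteoglycans passed, 3 of them higher and 2 lower. DCN, decorin, a small proteoglycan that binds collagen fibrils and TGF-beta, had log2 values of 10.72, 10.61, 10.47 and 10.57 in HepG2S1 with sorafenib and 5.03, 5.24 and 5.23 in HepG2. The fitted log2 fold change was 5.43 ± 0.07 (SE; limma, adjusted p = 8.53e-18). LUM, lumican, which regulates fibril spacing, had values of 10.34, 10.00, 10.14 and 10.35 in HepG2S1 and 4.94, 5.06 and 5.60 in HepG2, a log2 fold change of 5.01 ± 0.14. Both genes lay near the floor on all HepG2 arrays, so that their folds are limited by it. BGN, biglycan, a close relative of decorin, went the other way, with 7.51, 7.71, 7.63 and 7.63 in HepG2S1 and 9.93, 9.82 and 10.09 in HepG2 (-2.32 ± 0.07). VCAN, versican, a large hyaluronan-binding proteoglycan, had 4.80, 5.07, 5.11 and 5.05 in HepG2S1, all near the floor, and 9.68, 9.39 and 9.13 in HepG2 (-4.39 ± 0.11). SPOCK1, testican, a secreted proteoglycan, averaged 8.03 ± 0.05 (SD, n = 4) in HepG2S1, against 6.95 ± 0.07 (SD, n = 3) in HepG2, and rose by 1.08 ± 0.06. The groups did not overlap on any of these 5 genes.

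Among the 15 genes of microfibrils and elastic fibres 7 rose, 3 fell and 5 did not pass. MFAP5, a microfibril protein also known as MAGP-2, had log2 values of 12.59, 12.57, 12.59 and 12.63 in HepG2S1 with sorafenib and 5.97, 5.85 and 6.07 in HepG2 (6.63 ± 0.06; limma, adjusted p = 1.69e-19). EFEMP1, the fibulin-3 glycoprotein, had 12.48, 12.31, 12.42 and 12.43 in HepG2S1 and 5.97, 6.34 and 5.71 in HepG2 (6.41 ± 0.11). FBN2, fibrillin-2, the fibrillin of developing tissue, had 11.10, 10.92, 11.02 and 11.00 in HepG2S1 and 5.52, 5.99 and 5.53 in HepG2, where its mean was near the floor (5.33 ± 0.11). These 3 genes were bright on every HepG2S1 array and dim on every HepG2 array. FBN1, fibrillin-1, the main fibrillin of adult microfibrils, averaged 9.19 ± 0.11 (SD, n = 4) in HepG2S1, against 6.93 ± 0.09 (SD, n = 3) in HepG2 (2.26 ± 0.08). Smaller rises were in FBLN5, which links elastin to integrins (1.83), LTBP1, which anchors latent TGF-beta to the matrix (1.78), and FBLN1 (0.65).

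EFEMP2, the fibulin-4 glycoprotein needed for elastic fibre assembly, fell to 7.38 ± 0.07 (SD, n = 4) in HepG2S1, against 8.49 ± 0.07 (SD, n = 3) in HepG2 (-1.11 ± 0.07). MFAP4 and MFAP2, 2 further microfibril proteins, fell by 0.37 and 0.29, and MFAP4 was near the floor in all 4 groups. ELN, the elastin monomer, did not pass, at 8.49 ± 0.06 (SD, n = 4) in HepG2S1, against 8.45 ± 0.13 (SD, n = 3) in HepG2. The 95% interval of its difference was -0.12 to 0.21. LTBP2 and FBLN2 had log2 fold changes of 0.03 and -0.01, and EMILIN1 and EMILIN2, glycoproteins of the elastin interface, -0.14 and -0.15; none of the 4 passed.

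**Figure D2:**
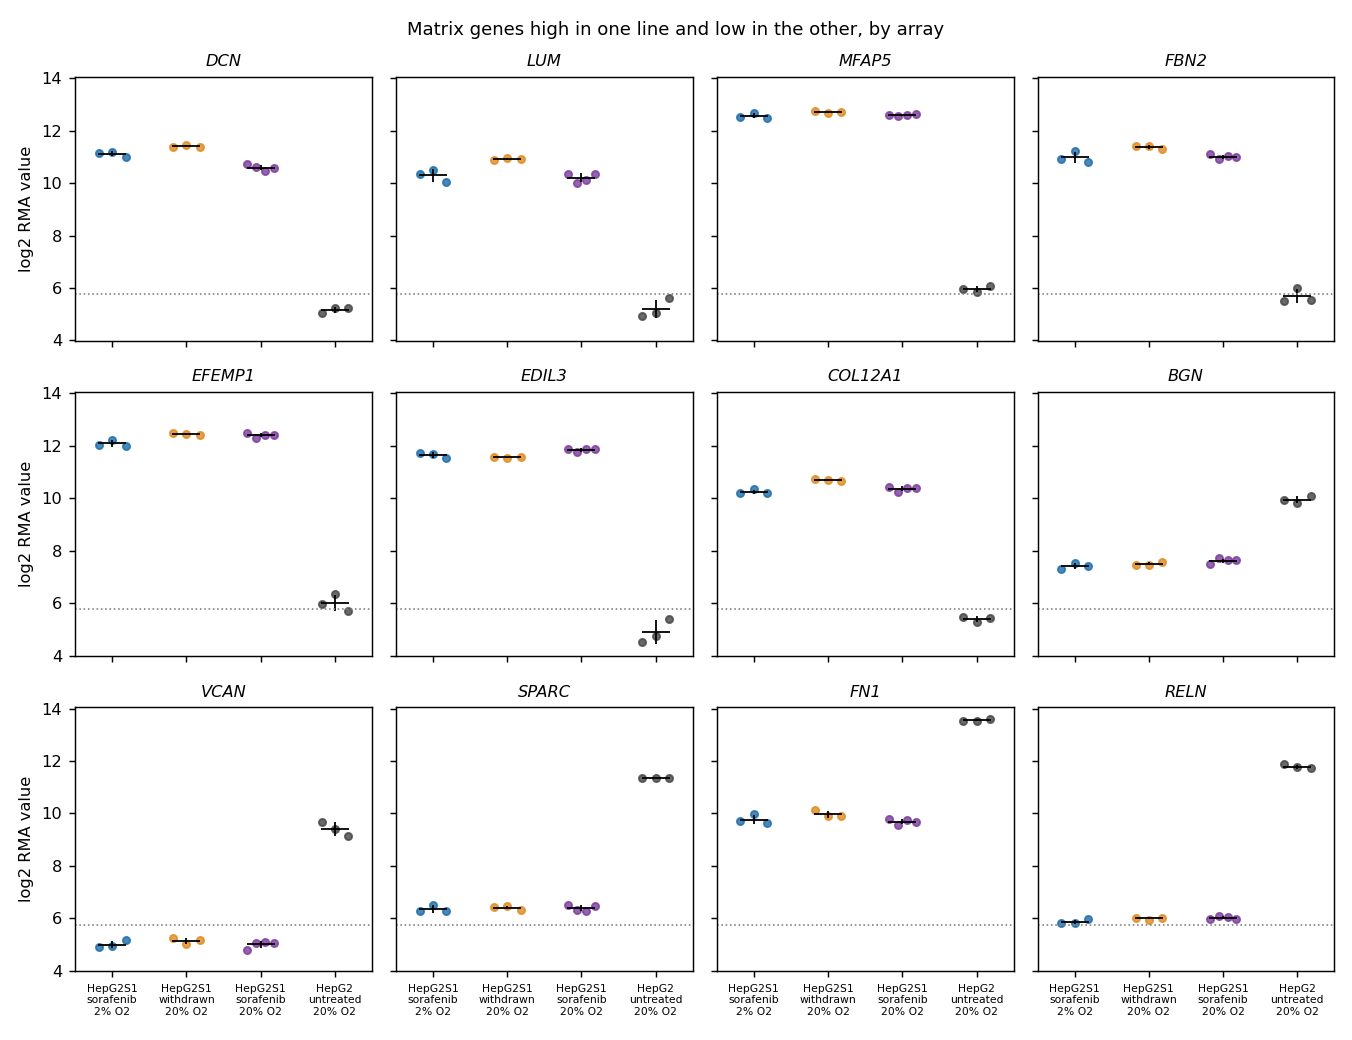
Log2 RMA value of 12 matrix genes on each array, with the 4 groups on the x axis; points are arrays, bars the mean ± SD, and the dotted line is the median lower quartile (5.76). The first 7 panels are high on all 10 HepG2S1 arrays and low on the 3 HepG2 arrays. The last 5 are lower on all 10 HepG2S1 arrays than on the 3 HepG2 arrays, though FN1 stayed at 9.57 to 10.13 and BGN at 7.30 to 7.71 in HepG2S1.

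Of 13 matricellular and adhesive glycoproteins 4 rose, 6 fell and 3 did not pass. EDIL3, an integrin-binding matrix protein, had log2 values of 11.90, 11.75, 11.88 and 11.89 in HepG2S1 with sorafenib and 4.52, 4.76 and 5.39 in HepG2, all near the floor (6.97 ± 0.14; limma, adjusted p = 1.14e-15). FN1, fibronectin, fell to 9.78, 9.57, 9.73 and 9.67 in HepG2S1, against 13.52, 13.53 and 13.59 in HepG2 (-3.86 ± 0.08; limma, adjusted p = 3.16e-15). SPARC, a collagen-binding matricellular protein, had 6.51, 6.30, 6.27 and 6.45 in HepG2S1 and 11.35, 11.36 and 11.35 in HepG2 (-4.97 ± 0.07). The 3 genes separated the lines with no overlap. RELN, reelin, a secreted guidance glycoprotein of the nervous system that is also expressed in liver, had 5.98, 6.08, 6.06 and 5.98 in HepG2S1 and 11.87, 11.76 and 11.73 in HepG2 (-5.76 ± 0.06).

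The other rises in this group were smaller. MATN2, matrilin-2, a filament-forming adaptor, rose by 1.71 ± 0.10, THBS3, a thrombospondin, by 1.30 ± 0.07 and ECM1, extracellular matrix protein 1, by 1.07 ± 0.08. THBS1, thrombospondin-1, which activates latent TGF-beta and inhibits angiogenesis, fell to 10.50, 10.23, 10.37 and 10.34 in HepG2S1, against 11.56, 11.49 and 11.67 in HepG2 (-1.21 ± 0.08). THBS2 fell by 0.28 (adjusted p = 0.063 in limma without HepG2 replicate 2) and TGFBI, a TGF-beta-induced adhesion protein, by 0.21. TNC, tenascin-C, POSTN, periostin, and SPARCL1, a relative of SPARC, did not pass, at 0.00, -0.05 and -0.12. POSTN and SPARCL1 were near the floor in all 4 groups, so that the arrays say little about them.

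Of 13 measured collagens 4 rose and 2 fell. COL12A1, a collagen that sits on the surface of fibrils, had log2 values of 10.43, 10.23, 10.41 and 10.39 in HepG2S1 with sorafenib and 5.48, 5.27 and 5.44 in HepG2, all near the floor (4.97 ± 0.07; limma, adjusted p = 1.29e-17). COL5A1, the collagen V chain that starts fibril assembly, had 9.14, 9.14, 9.11 and 9.17 in HepG2S1 and 7.75, 7.61 and 7.70 in HepG2 (1.45 ± 0.06). COL5A2, the chain it is assembled with, did not pass, at 6.26 ± 0.05 (SD, n = 4) in HepG2S1, against 6.37 ± 0.14 (SD, n = 3) in HepG2. COL1A1, the major chain of collagen I, had 8.46, 8.56, 8.46 and 8.53 in HepG2S1 and 8.57, 8.70 and 8.40 in HepG2, with a 95% interval of -0.21 to 0.10 for the log2 difference. COL1A2 and COL3A1 had intervals of -0.14 to 0.12 and -0.31 to 0.01. Those 3 genes thus overlapped between the lines, and a change of 2-fold lay outside each interval on the array scale. Without detection calls it is not known whether these values stand above probe background. The intervals therefore bound the array signal and not a change in the transcripts.

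Of the collagen VI chains, which form beaded filaments around cells, COL6A1 fell by 0.23 ± 0.07, while COL6A2 and COL6A3 were at -0.01 and 0.04 and did not pass. COL8A1, a short-chain collagen, rose by 0.53 and COL7A1, the anchoring fibril collagen of skin, by 0.40. COL18A1, whose C-terminal fragment is endostatin, fell by 0.69 ± 0.07. COL13A1, a transmembrane collagen, did not pass, at 0.07.

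**Figure D3:**
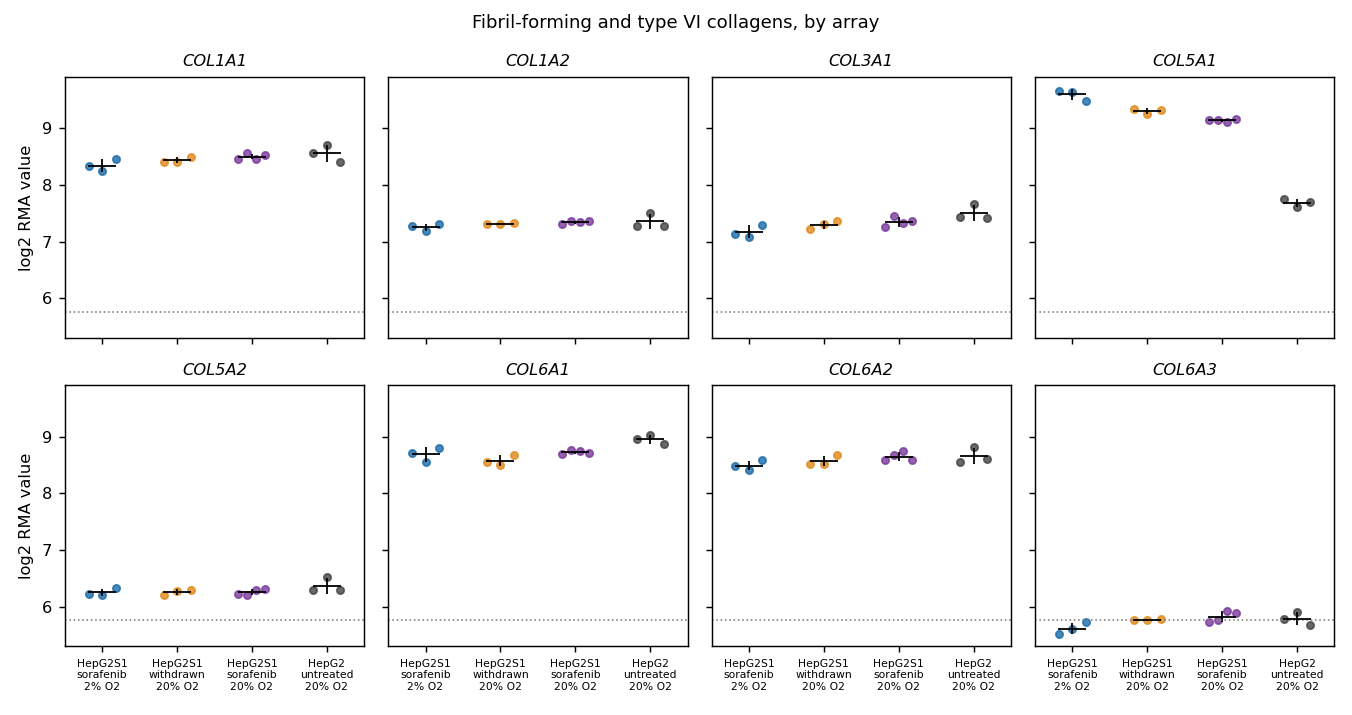
Log2 RMA value of 8 collagen chains on each array, with the 4 groups on the x axis; points are arrays, bars the mean ± SD, and the dotted line is the median lower quartile (5.76). COL5A1 is higher on all 10 HepG2S1 arrays, while COL1A1 and COL1A2 overlap across the groups.

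The name of the gene set, fibroblast-type matrix, was set against markers of fibroblasts and stellate cells that are not matrix genes. Of 13 measured markers 5 rose, 2 fell and 6 did not pass in HepG2S1 with sorafenib. Over all genes tested 57.3% passed in this comparison (30.1% higher, 27.2% lower), so the share of these markers that passed was near that of all genes. FAP, a membrane protease of activated fibroblasts, rose by 3.75 ± 0.12, S100A4 by 2.38 ± 0.10 and the mesenchymal transcription factor TWIST1 by 1.97 ± 0.05. ACTA2, smooth muscle actin, fell by 2.00, and PDGFRA, PDGFRB and THY1, surface markers of fibroblasts, were at 0.07, -0.10 and 0.15 and did not pass. The summed linear level of the list was 3666 to 3844 in HepG2S1 with sorafenib and 3401 to 3575 in HepG2. Different genes made up the 2 sums. ACTA2, at 11.02, had the largest value in HepG2, and S100A4 and TWIST1, both at 9.77, had the largest in HepG2S1 with sorafenib. Among markers of squamous epithelium 4 of 8 rose and 1 fell, and their summed level was 5793 to 6036 in HepG2S1 with sorafenib and 1049 to 1180 in HepG2. SERPINB5, at 11.83 in HepG2S1 with sorafenib and 5.03 in HepG2, had the largest value in the HepG2S1 sum. KRT14, IVL and DSG3 did not pass, and DSC3 fell by 0.56. Of 14 hepatocyte markers 13 fell, to a summed level of 1104 to 1210, against 82658 to 85118 in HepG2, and 6 of the 14 were near the floor in HepG2S1. None of 7 endothelial markers rose and 4 fell, and of 6 blood cell markers 1 rose and 2 fell. The part of these shifts in the matrix results was not tested.

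Across the 10 HepG2S1 arrays, whatever the drug or oxygen, 18 of the 46 genes lay above all 3 HepG2 arrays and 9 lay below them, while 19 overlapped. The same count was not made over all genes, so it is not read as a trait of the matrix genes. Withdrawn HepG2S1 against HepG2, had 18 higher and 12 lower genes of 46, with 56.6% of all genes tested passing in limma (29.6% higher, 27.0% lower). By 2-fold or more, 13 rose and 6 fell, against 15.8% of all genes (8.37% higher, 7.47% lower). This contrast is not a test of the set either, since the genes were chosen with earlier results known. DCN had a log2 fold change of 6.25 ± 0.08, MFAP5 of 6.76 ± 0.06, RELN of -5.80 ± 0.06 and SPARC of -4.96 ± 0.08. SPOCK1 and THBS3, 2-fold higher in HepG2S1 under the drug, were higher by 0.74 and 0.38 in withdrawn cells. THBS1 and TGFBI, lower in HepG2S1 under the drug, did not pass in withdrawn cells, at 0.06 ± 0.09 and 0.04 ± 0.06, and THBS2 and MFAP2 did not pass either, at -0.10 and -0.19. COL3A1, EMILIN1 and EMILIN2 fell by 0.20, 0.26 and 0.21, with adjusted p of 0.0455, 0.02 and 0.0289 in limma, and 9 to 13 genes fell when 1 array was left out. Each of these 3 calls was lost without replicate 1 or 2 of the withdrawn cells or replicate 2 of HepG2, at adjusted p of up to 0.232 for COL3A1, 0.109 for EMILIN1 and 0.167 for EMILIN2. Without HepG2 replicate 2 the log2 fold changes were -0.12, -0.18 and -0.11. COL3A1 also lost its call with trend and robust moderation (limma, adjusted p = 0.0568). In a fit of the 2 compared groups alone COL3A1 and EMILIN2 lost theirs (limma, adjusted p = 0.0697 and 0.0718). The 2 comparisons with HepG2 share the 3 HepG2 arrays.

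Withdrawal of the drug within HepG2S1 was examined next, with withdrawn cells (n = 3) set against cells with sorafenib at 20% O2 (n = 4). 8 of the 46 matrix genes rose, 4 fell and 34 did not pass, and 18.0% of all genes tested passed in limma (10.1% higher, 7.90% lower). The changes were small next to those between the lines, and THBS1 alone among the 46 changed by 2-fold or more. Over all 18377 genes tested, 28 passed with a change of 2-fold or more, so such changes were rare throughout. The median log2 fold change was -0.01 for the 46 genes and -0.02 for all genes. Leaving out replicate 1 of the withdrawn cells, or replicate 2 of the cells with the drug, left 5 rises in place of 8.

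THBS1 had log2 values of 11.64, 11.62 and 11.63 in withdrawn cells and 10.50, 10.23, 10.37 and 10.34 with sorafenib, a log2 fold change of 1.27 ± 0.08 (limma, adjusted p = 4.54e-07). The HepG2 arrays, at 11.56, 11.49 and 11.67, thus overlapped the withdrawn ones. THBS3 went the opposite way, at 7.22, 7.04 and 7.14 in withdrawn cells and between 7.95 and 8.14 on the 4 arrays with sorafenib (-0.92 ± 0.07; limma, adjusted p = 1.35e-06). THBS2 did not pass, at 0.18 ± 0.09. The 3 thrombospondins are encoded on different chromosomes, THBS1 on 15, THBS2 on 6 and THBS3 on 1.

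DCN rose to 11.40, 11.45 and 11.40 in withdrawn cells, against 10.72, 10.61, 10.47 and 10.57 with the drug (0.82 ± 0.07; limma, adjusted p = 4.08e-06). LUM had 10.89, 10.97 and 10.94 in withdrawn cells and 10.34, 10.00, 10.14 and 10.35 with the drug (0.73 ± 0.14; limma, adjusted p = 0.00232). Both small proteoglycans, already higher in HepG2S1 than in HepG2, were higher still after withdrawal. SPOCK1 fell by 0.34 ± 0.06, and BGN and VCAN did not pass, at -0.12 and 0.13.

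COL12A1 had 10.74, 10.70 and 10.65 in withdrawn cells and 10.43, 10.23, 10.41 and 10.39 with the drug (0.33 ± 0.07; limma, adjusted p = 0.00296). TGFBI rose by 0.25 ± 0.06. FBN2, FBN1 and FN1 rose by 0.38 ± 0.11, 0.28 ± 0.08 and 0.28 ± 0.08, and these 3 calls depended on single arrays. Without 1 array, the adjusted p reached up to 0.0962 for FBN2 (replicates 1 and 2 of the withdrawn cells, 2, 3 and 4 with the drug), 0.1 for FBN1 (replicates 1 and 2 of the withdrawn cells, 2 with the drug) and 0.178 for FN1 (replicate 1 of the withdrawn cells, 2 and 4 with the drug). FBLN1 and FBLN5, both fibulins, fell by 0.32 ± 0.06 and 0.29 ± 0.06. No fibril-forming collagen or collagen VI chain passed; COL5A1, at 0.17 ± 0.06, came closest (adjusted p = 0.052). Among markers of squamous epithelium 4 of 8 rose, SERPINB3 by 1.62, and the summed level was 7362 to 7618 in withdrawn cells and 5793 to 6036 with the drug. The part of that shift in the matrix results was not tested.

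**Figure D4:**
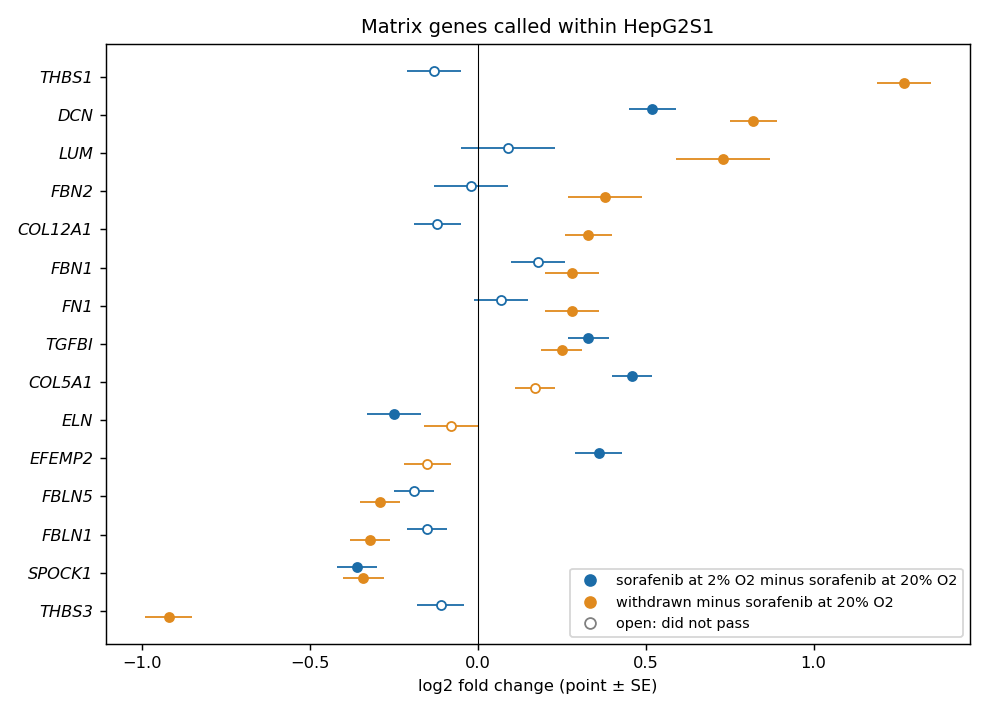
Log2 fold change (x axis, point ± SE of the limma fit) of the 15 matrix genes called in either comparison within HepG2S1; blue is sorafenib at 2% O2 (n = 3) and orange is withdrawn (n = 3), each minus sorafenib at 20% O2 (n = 4), and open points did not pass. THBS1 lies at 1.27 after withdrawal and -0.13 at 2% O2, and THBS3 at -0.92 and -0.11.

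Low oxygen under the drug was addressed by HepG2S1 with sorafenib at 2% O2 (n = 3) against 20% O2 (n = 4). Of the 46 genes 4 rose, 2 fell and 40 did not pass, while 15.2% of all genes tested passed in limma (8.99% higher, 6.17% lower). None changed by 2-fold, while 80 of all 18377 genes tested passed with a change of 2-fold or more. The median log2 fold change was -0.06 for the 46 genes and -0.03 for all genes. The count of falls depended on the setting, with 8 in place of 2 under 75th percentile scaling and 1 to 5 when 1 array was left out.

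DCN had log2 values of 11.14, 11.20 and 11.01 at 2% O2 and 10.72, 10.61, 10.47 and 10.57 at 20% O2 (0.52 ± 0.07; limma, adjusted p = 0.00016). COL5A1 had 9.66, 9.65 and 9.49 at 2% O2 and 9.14, 9.14, 9.11 and 9.17 at 20% O2 (0.46 ± 0.06; limma, adjusted p = 5.87e-05). EFEMP2 had 7.73, 7.81 and 7.70 at 2% O2 and 7.32, 7.43, 7.34 and 7.45 at 20% O2 (0.36 ± 0.07; limma, adjusted p = 0.00301). On these 3 genes the 2% O2 arrays lay above all of the 20% O2 arrays. TGFBI, with 11.69, 11.77 and 11.55 at 2% O2 and 11.35, 11.35, 11.29 and 11.37 at 20% O2, rose by 0.33 ± 0.06. SPOCK1 fell by 0.36 ± 0.06. ELN fell by 0.25 ± 0.08 (limma, adjusted p = 0.0447), and the call was lost without any 1 of 5 arrays, replicates 1 and 2 at 2% O2 and 2, 3 and 4 at 20% O2, at adjusted p of up to 0.207. Of the RefSeq windows of COL5A1, EFEMP2 and TGFBI, that of COL5A1 held ACGTG, and DCN had no window. FBN2, EMILIN2, LTBP1, THBS2, RELN and COL12A1, whose windows held it too, did not pass at 2% O2. Their log2 fold changes were between -0.16 and -0.01. A link between the motif and the response to oxygen was not tested.

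Withdrawal and low oxygen were both measured against the same 4 arrays, so that their changes were compared directly, as HepG2S1 with sorafenib at 2% O2 (n = 3) minus withdrawn HepG2S1 (n = 3). 3 of the 46 genes were higher and 7 lower at 2% O2, and 18.6% of all genes tested passed in limma (10.8% higher, 7.73% lower). THBS1, at 10.09, 10.14 and 10.45 at 2% O2 and 11.64, 11.62 and 11.63 in withdrawn cells, differed by -1.40 ± 0.09 (limma, adjusted p = 1.85e-07). THBS3, at 7.97, 8.03 and 7.83 at 2% O2 and 7.22, 7.04 and 7.14 in withdrawn cells, differed by 0.81 ± 0.07. The changes of both thrombospondins were thus larger on withdrawal than at 2% O2 by a direct test. Marker genes differed as well. Of 8 squamous markers 3 were lower at 2% O2, KRT5 by 0.94, SERPINB3 by 1.16 and SERPINB5 by 0.25, and the summed level was 6064 to 6341 at 2% O2 and 7362 to 7618 in withdrawn cells. Of 13 fibroblast and stellate markers 3 were higher, ACTA2 by 0.45, RGS5 by 0.59 and TWIST1 by 0.23, and 1 was lower, TAGLN by 0.44, with a summed level of 3824 to 3975 at 2% O2 and 3581 to 3808 in withdrawn cells. The part of these markers in the matrix results was not tested.

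LUM was lower at 2% O2 than in withdrawn cells by 0.64 ± 0.15 on the log2 scale, and COL12A1 by 0.45 ± 0.07. EFEMP2 and COL5A1 were higher at 2% O2, by 0.52 ± 0.08 and 0.29 ± 0.06. DCN, which rose in both comparisons, was lower at 2% O2 by 0.30 ± 0.08 (limma, adjusted p = 0.0127), but the adjusted p was 0.0521 without replicate 2 of the withdrawn cells and 0.055 without replicate 3 at 2% O2. FBN2, EFEMP1 and POSTN were lower by 0.40, 0.36 and 0.16, and each of these calls was lost without single arrays of either group, at adjusted p of up to 0.113, 0.141 and 0.163. POSTN also lost its call under 3 of the other settings. Without replicate 2 of the withdrawn cells, or replicate 3 at 2% O2, 6 genes were called in place of 10. For TGFBI and SPOCK1, which moved the same way in both comparisons, the direct difference did not pass, with 95% intervals of -0.06 to 0.21 and -0.15 to 0.10.

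Related genes of the matrix were counted from lists of other collagens, other matrix glycoproteins and proteoglycans, collagen processing and secretion, matrix receptors, matrix proteases with their inhibitors, and the TGF-beta pathway. In HepG2S1 with sorafenib against HepG2, where 57.3% of all genes passed (30.1% higher, 27.2% lower), 7 of 30 other collagens rose and 6 fell, with the basement membrane chains COL4A2 and COL4A1 at 2.21 and 1.87. Of 56 other glycoproteins and proteoglycans 14 rose and 11 fell, with FGB, a fibrinogen chain made by hepatocytes, at -7.33 and MATN3, a matrilin of cartilage, at -5.36. Collagen processing genes had 14 rises and 7 falls among 28, with the crosslinking enzymes LOX at 4.12 and LOXL4 at -3.31, and a list median of 0.27. Of 23 matrix receptors 9 rose and 7 fell, with CD44, the hyaluronan receptor, at 4.23 and SDC2, a syndecan, at -5.29. Proteases and inhibitors had 8 rises and 9 falls among 24, and the TGF-beta pathway 9 rises and 6 falls among 18, with the ligand TGFB2 at 2.44 and the coreceptor TGFBR3 at -2.08. By 2-fold or more, 3 genes of that pathway rose and 5 fell, against 15.8% of all genes tested (8.45% higher, 7.31% lower). This list too was chosen with earlier results of these data known.

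Of 28 processing genes 8 rose, 1 fell and 19 did not pass at 2% O2, where 15.2% of all genes passed; the list median was 0.02, against -0.03 for all genes. LOXL2 and LOX, which oxidise lysines of collagen and elastin, rose by 1.61 ± 0.10 and 1.46 ± 0.06. None of the 30 other collagens rose at 2% O2 and 1 fell, COL2A1 by 0.22. On withdrawal, where 18.0% of all genes passed in limma, none of the 30 passed in either direction. Of the 56 other glycoproteins 2 rose and 6 fell at 2% O2, CCN5 rising by 0.91, and 5 rose and 5 fell on withdrawal, CCN1 rising by 0.70. On withdrawal, 4 processing genes rose and 6 fell, with a list median of -0.06; SEC24D, a coat protein that exports procollagen from the endoplasmic reticulum, fell by 0.80, and TLL1, a procollagen protease, rose by 0.77. DDR2, a kinase receptor for fibrillar collagen, fell by 1.22 ± 0.09 on withdrawal, and ITGA5, a subunit of the fibronectin receptor, rose by 0.92 ± 0.08 at 2% O2. Of 18 TGF-beta pathway genes 5 rose and 2 fell at 2% O2, with TGFB2 at 0.79 and TGFB1 at 0.45, and 3 rose and 1 fell on withdrawal, with the inhibitor SMAD7 at 0.48.

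**Figure D5:**
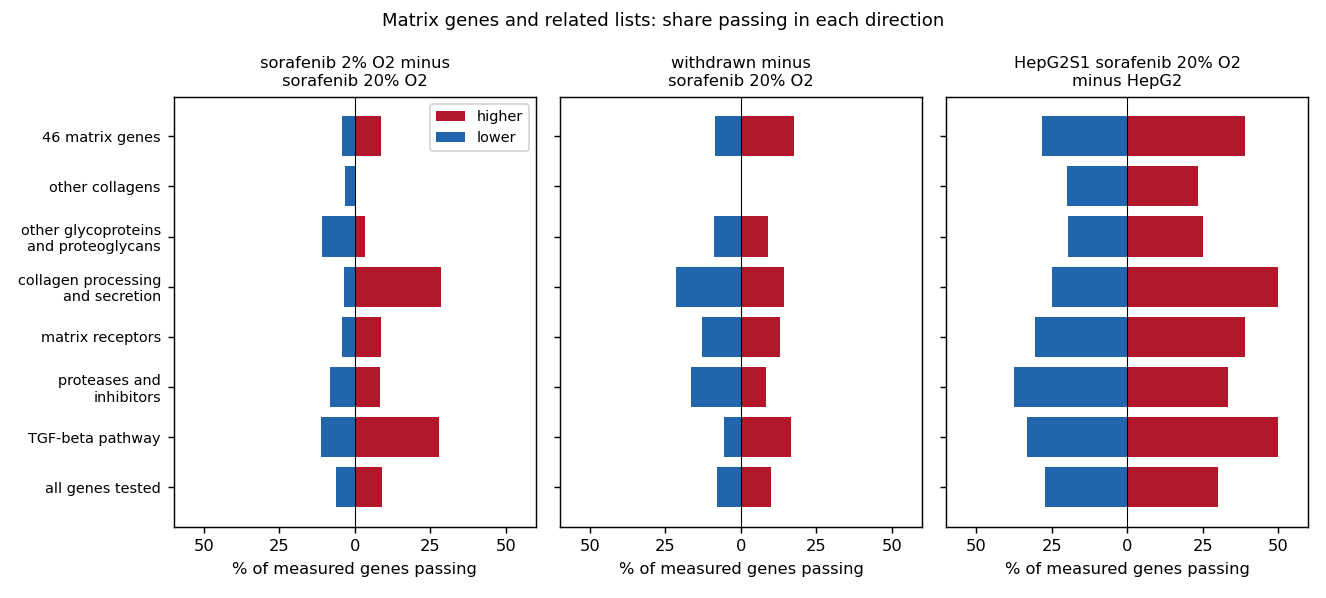
Share of measured genes that passed in limma, in percent, for the 46 matrix genes, 6 related lists and all genes tested; bars to the right are higher and bars to the left lower, in 3 comparisons. For sorafenib at 2% O2 against 20% O2, 8 of 28 collagen processing genes were higher and 1 was lower.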

How the data were processed

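The deposited values are on a log2 scale and come from RMA, per the submitters' processing notes, a method that corrects background, normalizes between arrays and summarises probes. The table held 28926 rows, of which the platform annotation gave 19310 a single gene symbol, 1752 several and 7864 none. Symbols were updated through Entrez IDs with the RefSeq table of GRCh38.p14, and the brightest row per gene left 18377 genes.

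All 4 groups (13 arrays) entered 1 limma fit (limma 3.58.1, R 4.3.3), adjusted by Benjamini-Hochberg over all genes, with a threshold of 0.05. The labels do not say whether samples of a group came from separate cultures, so the p-values measure only the spread between these samples, and they name no batch.

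The matrix genes and the gene lists were chosen with earlier results of these data known. A gene was given with values if it passed at 2-fold against HepG2, or passed within HepG2S1, and up to 2 genes were named per related list and comparison. The fit was tested on simulated data. Settings varied were the moderation (trend and robust), the groups in the fit, a filter below the 33rd percentile of the mean, scaling to the 75th percentile, a second quantile normalization, averaging a gene's rows, array weights, and omission of single arrays. After seeing the data, a fit restricted to the 10 arrays of HepG2S1 was added. Plots were made with matplotlib 3.10.9 (Python 3.11.15).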

Additional observations from a re-analysis of the deposited data

Results flagged for a closer look

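In HepG2S1 with sorafenib at 20% O2, the only group of 4 arrays, the lowest EDIL3 array, at a log2 value of 11.75, lay apart from the other 3, at 11.88 to 11.90. The gap was 0.882 of the group's range, above Dixon's 95% critical value for 4 samples. It was the 1 flag among the 46 genes tested this way, and chance flags about 1 in 20 groups. The difference from HepG2, at 4.52 to 5.39, is large against this gap.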

How the results depend on the processing

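No paired analysis was possible because the labels give the groups no shared replicate numbers. Of 89 calls of the 46 genes over the 5 comparisons, 77 held in every alternative run and 12 were lost in at least 1, among them THBS2 in the line comparison and COL3A1, EMILIN1 and EMILIN2 in withdrawn cells against HepG2. None of the 89 changed direction. Single arrays moved the counts for the 46 genes as follows: for the line comparison 30 to 32 called (18 higher, 12 to 14 lower), for withdrawn cells against HepG2 27 to 31 (18 higher, 9 to 13 lower), for withdrawal 9 to 14 (5 to 9 higher, 4 to 5 lower), for 2% O2 5 to 9 (4 to 5 higher, 1 to 5 lower) and for 2% O2 against withdrawn cells 6 to 11 (3 to 4 higher, 3 to 8 lower). Over all genes 1598 to 2963 were called at 2% O2 without 1 array, the fewest without replicate 2 at 2% O2, and 1722 without replicate 1 at 2% O2. With array weights 7 genes of the 46 were lower on withdrawal, and 5231, 4568 and 5178 of all genes passed for withdrawal, 2% O2 and the direct comparison of the 2. At 2% O2 the number called was 12 with 75th percentile scaling, array weights or the HepG2S1 arrays alone, 8 of them lower in each; 5 were lower with the filter or repeated quantile normalization and 4 with the 2 groups alone. The causes were not tested. Signal over background limits the folds of the 6 genes near the floor in HepG2 alone, of VCAN in HepG2S1, and of the 3 near it in every group. Also close to the floor were MFAP5 (5.85 to 6.07) and EFEMP1 (5.71 to 6.34) in HepG2 and RELN (5.8 to 6.08) in HepG2S1. Their folds may be limited too.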

Other observations

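Some of the matrix genes that differed most between the lines lie near other matrix genes that were near the floor in all 4 groups. The arrays say little about whether those neighbours differ. LUM and DCN lie next to each other on chromosome 12, beside KERA, which encodes keratocan, another small leucine-rich proteoglycan. KERA averaged 4.93 ± 0.13 (SD, n = 4) in HepG2S1 with sorafenib and 4.92 ± 0.03 (SD, n = 3) in HepG2, near the floor in both, while DCN averaged 10.59 in HepG2S1 and 5.16 in HepG2, and LUM 10.21 in HepG2S1 and 5.20 in HepG2. EPYC, epiphycan, of the same family, averaged 5.07 ± 0.01 (SD, n = 4) in HepG2S1, against 5.19 ± 0.11 (SD, n = 3) in HepG2, and neither KERA nor EPYC passed in this comparison in limma (adjusted p = 0.936 and 0.15). In withdrawn HepG2S1 against HepG2, EPYC was lower by 0.19 (limma, adjusted p = 0.0319) and KERA did not pass. On chromosome 5, VCAN and EDIL3 flank HAPLN1, which links versican to hyaluronan. VCAN had a log2 fold change of -4.39 and EDIL3 of 6.97, and HAPLN1, near the floor in all 4 groups at 4.91 to 4.95, did not pass (0.01 ± 0.09). Genes named in this paragraph were chosen after their values were seen.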
